A study of Mus musculus with 10 samples.

Results

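Estrogen synthesis and granulosa cell identity were followed in captured granulosa cells of mouse ovaries through 9 genes. These were chosen by name, with earlier results of these data known: Cyp19a1, Hsd17b1, Nr5a1, Nr5a2, Esr2, Foxl2, Gata4, Gata6 and Greb1. All 9 were among the 35087 gene symbols of the tables, and all 9 were among the 10945 genes that passed the filter on low counts. The libraries came from wild-type female C57B6/J mice aged 3 weeks, which received NAC (N-acetyl-L-cysteine, a thiol compound that supplies cysteine for glutathione) at 150 mg/kg into the peritoneum on 3 days in a row, or saline on the same schedule. Ovaries were taken on day 4 and granulosa cells were cut out by laser microdissection, and 4 NAC and 6 saline libraries were made from amplified polyadenylated RNA by GEO-seq, a protocol for very small captured samples. Which animal each library came from, and how many follicles of which stages were captured, is not in the labels, so the p-values rest on spread among libraries, which may be technical.

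Granulosa cells surround the oocyte and turn androgens from the neighbouring theca cells into estrogens. Aromatase, encoded by Cyp19a1, forms the estrogen ring, and the hydroxysteroid dehydrogenase encoded by Hsd17b1 reduces weak estrone to potent estradiol. Transcription of these enzymes in the ovary draws on the orphan nuclear receptors NR5A1 (SF-1) and NR5A2 (LRH-1) and on GATA factors, and FOXL2 and the estrogen receptors keep the cells on the ovarian and not the testicular path. Estradiol acts in granulosa cells mainly through estrogen receptor beta, the product of Esr2.

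Depth ran from 116461 to 1667181 estimated reads in NAC and from 1340324 to 2488408 in saline. Reads were found for 84.8% (NAC 2) and 85.1% (NAC 3) of the genes tested, and for 97.7% to 99.5% in each of the 8 remaining libraries, so NAC 2 and NAC 3 stood apart. At 116461 reads, NAC 3 gave 2 reads for Cyp19a1 and 3 for Gata6. Granulosa markers were present as labelled: all 12 had reads in each saline library and 11 or 12 in each NAC library, the gap being Cyp19a1 in NAC 2. Summed over the 9 granulosa markers that are not among the genes followed here, the level was 37185 to 40973 CPM (reads scaled to a common library total) in saline 3 to 6, 13051 and 15756 in saline 1 and 2, and 7820 to 22376 in NAC. Most of that sum in saline 3 to 6 was Inha; without Inha the remaining 8 summed to 5445 and 5485 CPM in saline 1 and 2, 7757 to 10125 in saline 3 to 6, and 5060.0, 5234, 14160.4 and 7140.0 in NAC 1 to 4. Stroma markers summed to 88.6 to 1970 CPM in NAC and 109.5 to 1002 in saline, and oocyte markers to 186.1 to 1335 and 1.33 to 1743. Endothelial markers summed to 48.3 to 164 CPM in NAC and 8.11 to 43.6 in saline, without overlap, smooth muscle markers to 8.05 to 684 and 7.21 to 316, theca markers to 266 to 3045 and 585 to 2636, and luteal markers to 22.5 to 56.4 and 12.5 to 65.6. Surface epithelium markers summed to 0 to 69.3 CPM in NAC and 0.451 to 2.22 in saline. Immune markers stayed at or under 45 CPM in sum, and 3 of 5 surface epithelium markers (Krt19, Upk3b and Upk1b) were at 0 in all saline libraries. The part of these differences in the results was not tested. In captured tissue, fewer granulosa cells and less RNA per cell cannot be told apart.

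The genes divided into a pair that was lower in every NAC library than in every saline library, Hsd17b1 and Gata6, and 7 whose groups overlapped. The count of 2 of 9 without overlap, both lower in NAC, stands against 5.38% of all tested genes in either direction, 3.43% lower and 1.96% higher. None of the 9 was called by the quasi-likelihood test of edgeR at an adjusted p under 0.05, where 0.0731% of all tested genes were called, 0.0548% as lower. At an unadjusted p under 0.05, 2 of 9 passed, against 16.2% of all tested genes; both were lower, against 8.34%, and 0 were higher, against 7.82%. DESeq2, which called 3.96% of the genes, and limma-voom with sample quality weights, which called 4.35%, each called 2 of the 9, Hsd17b1 and Gata6. Without NAC 2 and NAC 3 together, edgeR called 0, and 2 had an unadjusted p under 0.05, against 16.6% of the genes tested there. Over the 9 genes the median log2 fold of NAC over saline was -0.30, against 0.018 over all tested genes. That order turned with offsets that remove trends on GC content and length, where the medians were 0.020 and -0.061. It also turned after thinning to the shallowest library, where 7 of the genes were tested and the medians were 0.091 and 0.014.

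**Figure D1:**
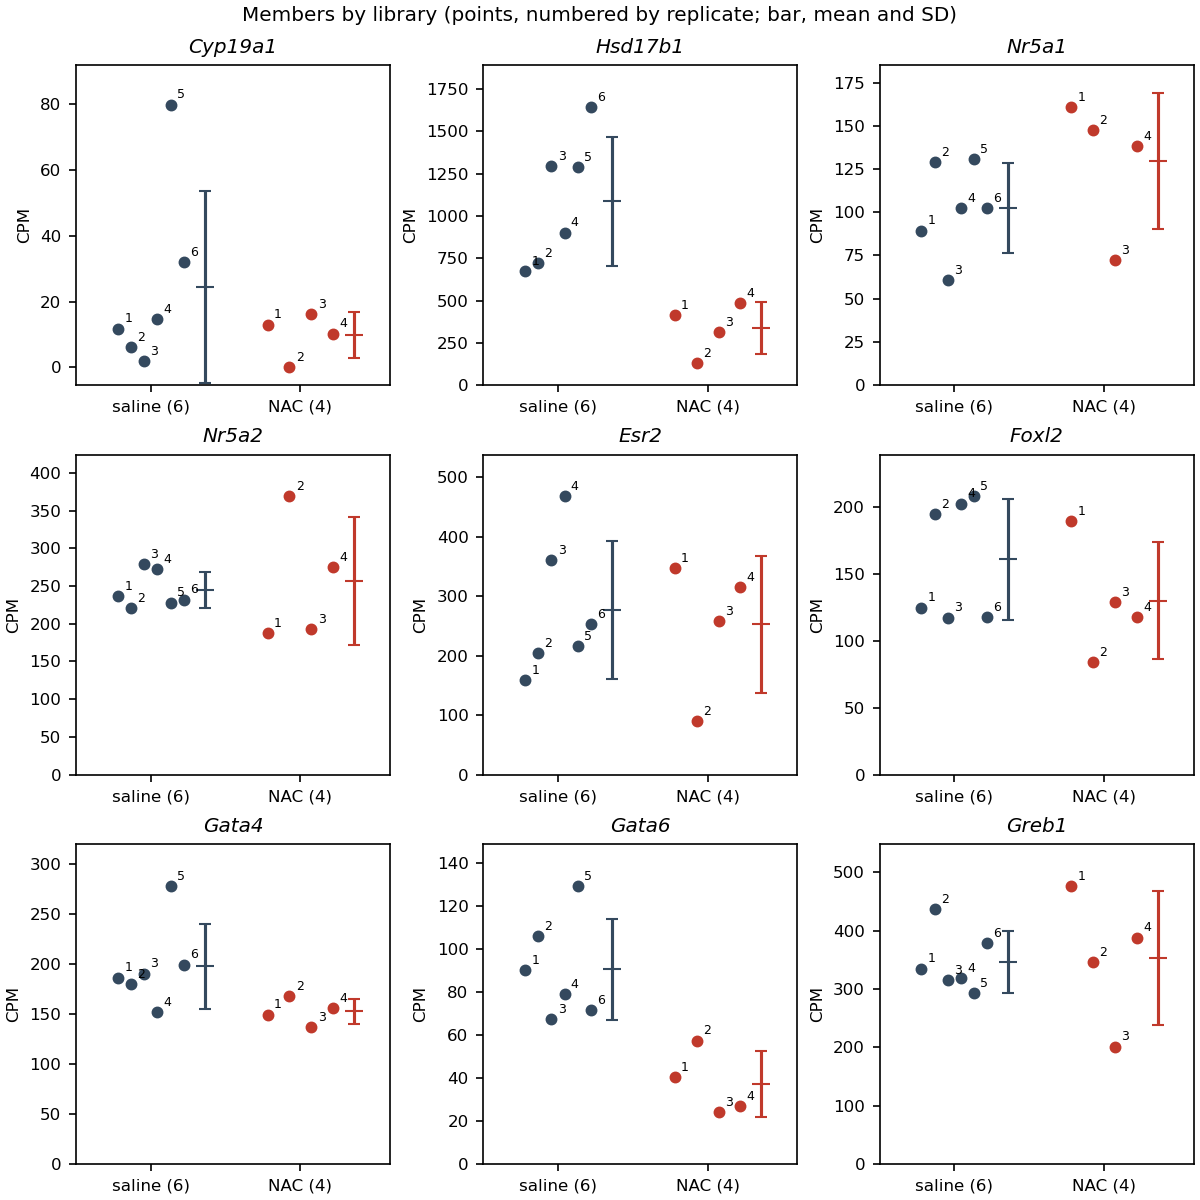
CPM of the 9 genes in the 6 saline (dark) and 4 NAC (red) libraries, each point a library numbered by replicate, with the group mean and SD as a bar. Hsd17b1 and Gata6 have no overlap between groups, Cyp19a1 has 1 saline library at 79.9 CPM, and the other genes overlap.

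Hsd17b1 (GRCm38 chromosome 11, 101078411 to 101080527, plus strand) was the most abundant of the 9 by TPM, the deposited value per transcript length. In saline it stood at 674, 721, 1293, 901, 1288 and 1644 CPM in replicates 1 to 6, and in NAC at 415, 131, 314 and 483 CPM in replicates 1 to 4. The highest NAC library thus lay below the lowest saline library, and NAC 2 was the lowest of all. Hsd17b1 averaged 336 ± 153 CPM across the 4 NAC libraries, against 1087 ± 383 across the 6 from saline (mean ± SD). The log2 fold was -1.68 (SE 0.38, edgeR unadjusted p = 0.000365, adjusted p = 0.0748), and it was negative under all 26 alternatives, from -2.01 to -1.24, with adjusted p-values of 0.00138 to 0.593. The smallest NAC value rested on 64 reads (131 CPM, 95% Poisson interval 101 to 167, counting error only) and NAC 3 on 39 reads, so counting error does not reach the saline range. Saline 1 and 2, the saline libraries with the lowest sums of granulosa markers, with or without Inha, were also the saline libraries with the least Hsd17b1; the part of those markers in the result was not tested. Scores of oocyte and stroma markers were means of centred log2 CPM over the tested markers. With both as covariates the log2 fold of Hsd17b1 was -1.57 (edgeR adjusted p = 0.502). By TPM, Hsd17b1 lay at the 98.1 to 99.0 percentile of tested genes in every saline library and at the 88.8 to 97.5 percentile in NAC.

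Cyp19a1 (chromosome 9, 54165937 to 54268110, minus strand), the aromatase gene, was the scarcest of the 9 by TPM and the most uneven among saline libraries. Saline libraries 1 to 6 had 11.8, 6.12, 1.80, 14.6, 79.9 and 32.0 CPM, and NAC libraries 1 to 4 had 13.0, 0, 16.1 and 10.2. Saline 5 and 6 were higher than every NAC library, and the other 4 saline libraries lay at or below 14.6 CPM, within the NAC range. The spread among saline libraries was 44.3-fold, a coefficient of variation of 1.19, which is at the 97.6 percentile of tested genes; for Hsd17b1 the saline range was 2.44-fold. The NAC libraries held 39 reads in all, and the 0 in NAC 2 allows up to 6.14 CPM (3 reads). Cyp19a1 averaged 9.82 ± 6.98 CPM across the 4 NAC libraries, against 24.4 ± 29.1 across the 6 from saline (mean ± SD), a log2 fold of -1.38 with an SE of 0.94 (edgeR adjusted p = 0.479), which was not a detectable difference at this depth. Without saline 5 the log2 fold was -0.54, and with offsets from the listed lengths, which do not match reads over TPM, it was -2.78 (edgeR unadjusted p = 0.0497, adjusted p = 0.347). Saline 5 and 6 also had the most Inhba, the FSH-responsive activin subunit gene, at 1076 and 942 CPM against 25.6 to 338 in the other saline libraries.

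NAC 2 was the lowest of the 10 libraries for both enzyme genes, and saline 5 and 6, the highest for Cyp19a1, were among the 3 highest for Hsd17b1. Saline 3, also among those 3 with 1293 CPM of Hsd17b1, had 4 reads for Cyp19a1. The log2 ratio of Cyp19a1 to Hsd17b1 reads within a library, computed with a prior count of 2 reads, was -8.90 to -3.99 in saline and -5.42 to -3.36 in NAC, a difference of 1.46 (exact two-sided permutation p = 0.143, adjusted p = 0.190 over the 4 ratios computed). NAC 2 had 0 and NAC 3 had 2 Cyp19a1 reads, so their ratios of -5.04 and -3.36 rest wholly (NAC 2) or in part (NAC 3) on the prior count for that gene. Without saline 5 it was 1.88 (by exact permutation p = 0.0238, adjusted p = 0.0476), without saline 3 it was 0.90, and with a prior count of 0.5 it was 0.89.

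Genes whose profile over the 10 libraries was nearest to each enzyme were found by the root mean square difference of centred log2 CPM among 9558 genes with a mean of at least 10 CPM. For Hsd17b1 the nearest was Rps2, a ribosomal protein gene, at 0.28 log2 units, where the median over the candidates was 1.20. Next came 1700037H04Rik at 0.32 and Tmem107 at 0.35. For Cyp19a1 the nearest were Endod1 at 0.86, Bcorl1 at 0.86 and Masp1 at 0.89, with a median of 1.70 over the candidates. These are descriptions over the libraries of both groups together, and the profiles share library depth.

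Nr5a1 and Nr5a2 encode closely related nuclear receptors that recognise the same DNA element. Nr5a1 (chromosome 2, 38692656 to 38714542, minus strand) had 89.3, 129, 60.8, 103, 131 and 102 CPM in saline 1 to 6 and 161, 147, 72.5 and 138 in NAC 1 to 4. NAC 1, 2 and 4 were above every saline library and NAC 3, with 9 reads, was near the lowest of them. Nr5a1 averaged 130 ± 39.3 CPM across the 4 NAC libraries, against 102 ± 26.1 across the 6 from saline (mean ± SD); the log2 fold was 0.38 with an SE of 0.29 (adjusted p = 0.529 by edgeR). With GC and length offsets it was 1.24 (edgeR unadjusted p = 0.00282, adjusted p = 0.140), and with the oocyte and stroma scores as covariates -0.065. By gene span, the antisense gene Nr5a1os overlaps Nr5a1, as Foxl2os, 1010001N08Rik and Gm48140 overlap Foxl2, Gata6 and Greb1 on the other strand. Overlap of exons was not examined. The strand setting is not given in the sources used here, so reads of any shared exon sequence may not be told apart.

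Nr5a2 (chromosome 1, 136842571 to 136960448, minus strand) was the steadiest of the 9 in saline. It had 236, 221, 279, 272, 228 and 232 CPM in saline 1 to 6, a 1.26-fold range whose coefficient of variation of 0.10 was at the 1.51 percentile of tested genes. In NAC it had 188, 369, 193 and 275 CPM, so by CPM NAC 1 and 3 lay below the saline range and NAC 2 above it. By TPM, NAC 1 to 4 had 74.2, 72.2, 49.7 and 102, against 55.2 to 77.9 in saline. On that measure only NAC 3 lay below the saline range and only NAC 4 above it. Nr5a2 averaged 256 ± 84.9 CPM across the 4 NAC libraries, against 245 ± 24.5 across the 6 from saline (mean ± SD); the log2 fold was 0.076 with an SE of 0.25 (adjusted p = 0.905 by edgeR) and turned negative under 7 of 26 alternatives. The log2 ratio of Nr5a1 to Nr5a2 reads was -1.30 to -0.22 in NAC and -2.18 to -0.77 in saline (difference 0.35, exact permutation p = 0.362, adjusted p = 0.362).

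Promoter windows show where elements for the products of these genes lie near their own starts. RefSeq windows on GRCm38.p6, taken as the 250 bases before a start, were at hand for 5 of the 9 genes and 9 starts. They were searched on both strands. The NR5A element was taken as AAGGTCA, and the shorter nuclear receptor core that it contains as AGGTCA. For GATA factors the letters were AGATAA or else TGATAA, for forkhead factors GTAAACA, and for the cAMP response element TGACGTCA. AAGGTCA was in 0 of 9 windows, against 4.08% of the 32851 windows searched, and AGGTCA in 3 of 9, against 14.0%. The forkhead and cAMP elements were in none of the 9, against 3.17% and 1.55% of all windows. The windows below are shown because the first carries the only match of the 3 Cyp19a1 windows, and the second is the 1 member window with GATA elements, 3 of them, beside an AGGTCA 64 bases before the start. Both are minus strand genes, written 5′ to 3′ along the gene with matches in capitals.
Cyp19a1, chr9:54268165-54268414: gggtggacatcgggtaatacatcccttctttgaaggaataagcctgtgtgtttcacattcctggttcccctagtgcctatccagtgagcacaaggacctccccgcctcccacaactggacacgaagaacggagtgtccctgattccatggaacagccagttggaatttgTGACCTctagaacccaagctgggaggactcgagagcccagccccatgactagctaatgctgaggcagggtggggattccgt
Nr5a2, chr1:136960449-136960698: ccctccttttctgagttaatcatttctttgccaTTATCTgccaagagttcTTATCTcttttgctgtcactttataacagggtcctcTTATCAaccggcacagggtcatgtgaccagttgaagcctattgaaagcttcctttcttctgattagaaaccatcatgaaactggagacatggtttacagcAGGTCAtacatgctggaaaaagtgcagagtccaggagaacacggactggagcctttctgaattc
The match in Cyp19a1 begins 81 bases before that start, the most upstream of the 3 RefSeq starts searched, and gene-level counts do not say which start was used. The Greb1 match, not shown, begins 88 bases before its upstream start. Each GATA element was in 1 of 9 windows, AGATAA against 9.99% of all windows and TGATAA against 7.94%. A match describes letters and not occupancy.

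Gata6 (chromosome 18, 11052064 to 11085635, plus strand) and Gata4 (chromosome 14, 63198922 to 63271692, minus strand) encode zinc finger factors with partly overlapping roles in granulosa cells. Gata6 had 90.0, 106, 67.2, 79.1, 129 and 71.6 CPM in saline 1 to 6 and 40.4, 57.3, 24.2 and 26.9 in NAC 1 to 4. Every NAC library was lower than every saline library. Gata6 averaged 37.2 ± 15.2 CPM across the 4 NAC libraries, against 90.5 ± 23.5 across the 6 from saline (mean ± SD). The log2 fold of NAC over saline was -1.24 with an SE of 0.34 (unadjusted p 0.00213 and adjusted p 0.110 by edgeR). The value in NAC 3 rests on 3 reads, with a 95% Poisson interval of 4.99 to 70.6 CPM that reaches into the saline range, as does that of NAC 2 (38.1 to 82.9), while the intervals of NAC 1 and 4 (30.5 to 52.4 and 19.9 to 35.4) do not. Without NAC 2 and NAC 3 the log2 fold was -1.47 (edgeR adjusted p = 0.0663).

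Saline 1 and 2, the saline libraries lowest in the sum of granulosa markers, were the third and second highest for Gata6; how Gata6 varies with that sum was not tested. Genes rich in G and C tended to lower folds: the median log2 fold was 0.44 over the 2713 genes of lowest GC content and -0.41 over the 2713 of highest. The longest Gata6 transcript has 55.3% GC. With offsets that remove trends on GC content and length, the log2 fold of Gata6 was -0.68 (edgeR unadjusted p = 0.111, adjusted p = 0.489), while that of Hsd17b1, at 54.4% GC and with a shorter transcript, was -1.33 (unadjusted p = 0.000486, adjusted p = 0.0831).

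**Figure D2:**
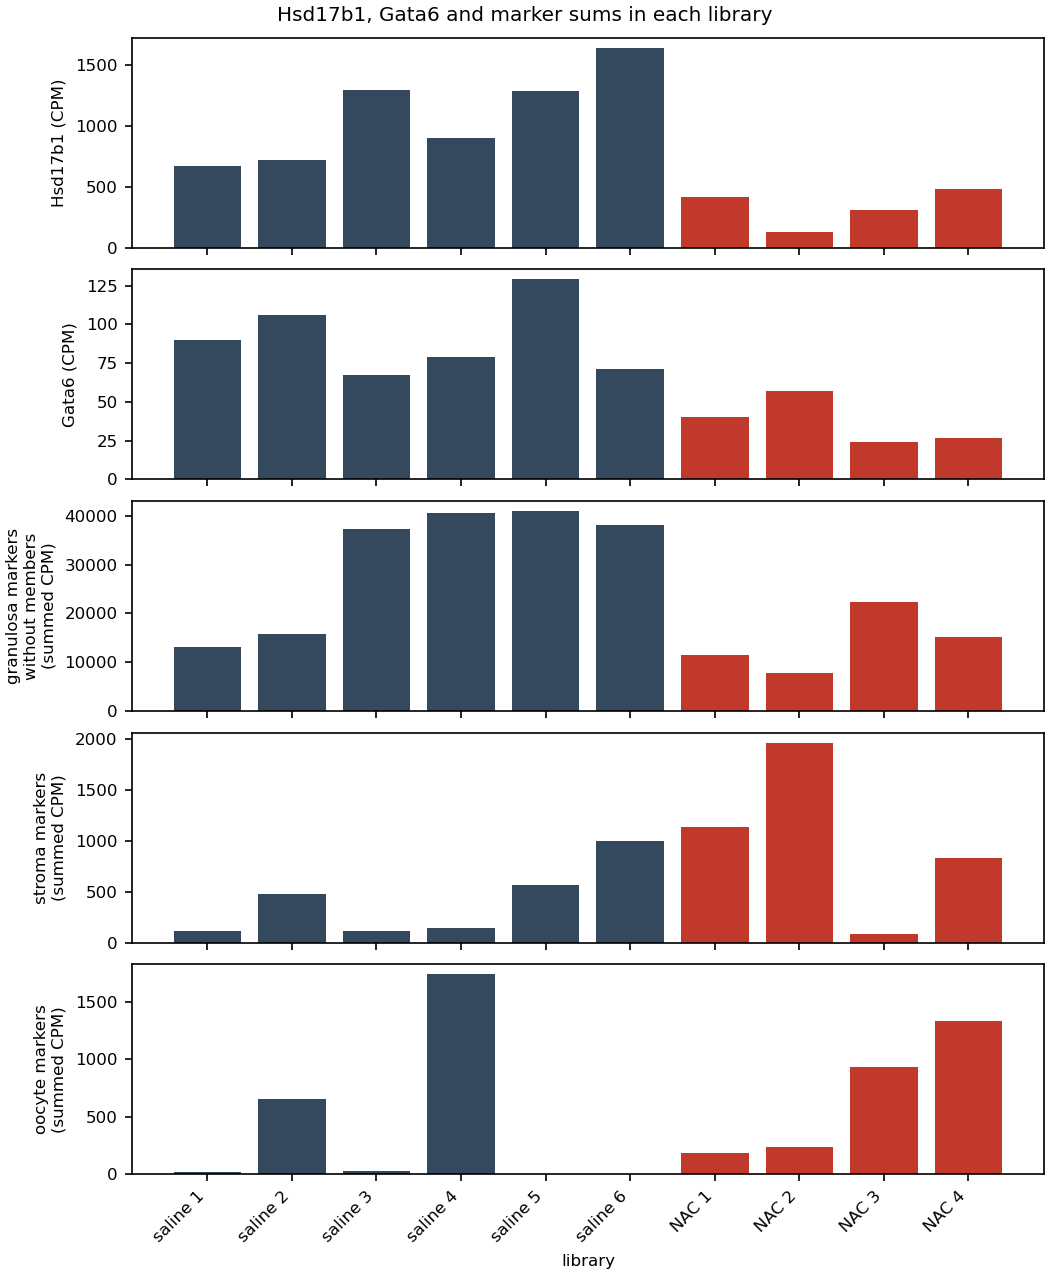
Hsd17b1 and Gata6 in CPM, and summed CPM of granulosa markers (without the 9 genes), stroma markers and oocyte markers, by library, with saline in dark and NAC in red. Granulosa sums are 13051 and 15756 CPM in saline 1 and 2 and 7820 to 22376 in NAC. Without Inha they are 5445 and 5485 in saline 1 and 2, and 5060.0, 5234, 14160.4 and 7140.0 in NAC 1 to 4. Hsd17b1 (674 and 721 CPM) and Gata6 (90.0 and 106 CPM) of saline 1 and 2 are above every NAC library. The part of the sums in these levels was not tested.

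Gata4 had 186, 179, 190, 152, 278 and 199 CPM in saline 1 to 6 and 149, 168, 137 and 156 in NAC 1 to 4. The groups overlapped narrowly, since 2 NAC libraries exceeded saline 4. Gata4 averaged 152 ± 12.9 CPM across the 4 NAC libraries, against 197 ± 42.5 across the 6 from saline (mean ± SD); the log2 fold was -0.36 with an SE of 0.25 (adjusted p = 0.476 by edgeR), which turned to 0.41 with GC and length offsets. The log2 ratio of Gata4 to Gata6 reads was 1.85, 1.49, 1.93 and 2.49 in NAC 1 to 4 and 0.75 to 1.49 in saline. The ratio averaged 1.94 ± 0.42 across 4 NAC libraries and 1.13 ± 0.29 across 6 saline libraries (mean ± SD), a difference of 0.81 (exact two-sided permutation p = 0.0143, adjusted p = 0.0571 over the 4 ratios). That difference did not pass the threshold after adjustment. It did pass with a prior count of 0.5 and with TPM plus 1, which each gave 0.93, both with an exact permutation p of 0.00476, the smallest possible, and an adjusted p of 0.0190.

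**Figure D3:**
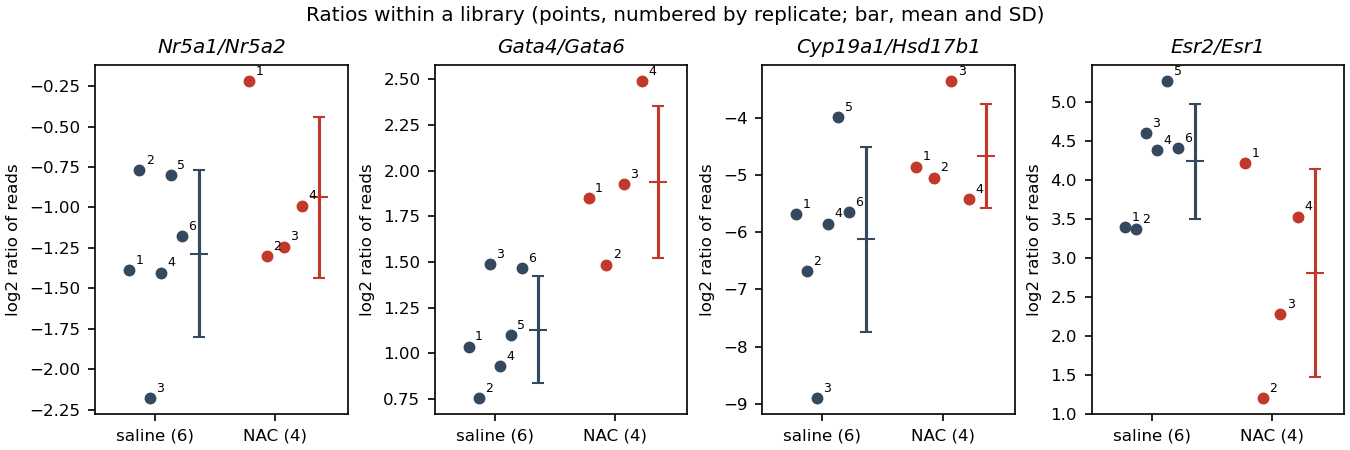
Log2 ratio of reads within each library (prior count 2) for Nr5a1/Nr5a2, Gata4/Gata6, Cyp19a1/Hsd17b1 and Esr2/Esr1, with points numbered by replicate and bars for the mean and SD. For Gata4/Gata6 3 NAC libraries lie above every saline library, and NAC 2 (1.49) lies at the level of the highest saline library.

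Foxl2 (chromosome 9, 98955288 to 98958543, plus strand), the forkhead factor that maintains ovarian identity, had reads in every library. It had 125, 194, 117, 202, 208 and 117 CPM in saline 1 to 6 and 189, 84.0, 129 and 118 in NAC 1 to 4. Saline libraries fell in a higher and a lower set of 3, and of the NAC libraries only NAC 2 was below the saline range. Foxl2 averaged 130 ± 43.8 CPM across the 4 NAC libraries, against 161 ± 45 across the 6 from saline (mean ± SD); the log2 fold was -0.30 with an SE of 0.30 (adjusted p = 0.641 by edgeR), and 0.48 with GC and length offsets. At 60.8% its transcript has the highest GC content of the 9.

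Esr2 (chromosome 12, 76120419 to 76177259, minus strand) ranged widely in both groups. It had 159, 204, 360, 468, 216 and 253 CPM in saline 1 to 6 and 348, 90.1, 258 and 315 in NAC 1 to 4. Its lowest value was in NAC 2, and the other NAC libraries lay inside the saline range. Esr2 averaged 253 ± 115 CPM across the 4 NAC libraries, against 277 ± 116 across the 6 from saline (mean ± SD); the log2 fold was -0.12 with an SE of 0.37 (adjusted p = 0.894 by edgeR). Without NAC 2 it was 0.15, and it was positive under 7 of 26 alternatives.

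Esr1, which encodes estrogen receptor alpha and is in the ovary mainly a gene of theca and stroma, had 17.3 to 40.3 CPM in NAC and 4.61 to 21.5 in saline (log2 fold 1.04 with an SE of 0.51, adjusted p = 0.327 by edgeR). The log2 ratio of Esr2 to Esr1 reads was 4.22, 1.20, 2.28 and 3.53 in NAC 1 to 4 and 3.37 to 5.27 in saline. The difference of -1.43 (exact permutation p = 0.0476) did not pass after adjustment (adjusted p = 0.0952), without NAC 2 it was -0.89, and without NAC 2 and NAC 3 -0.36. The summed level of stroma markers was highest in NAC 2, at 1970 CPM, where this ratio was lowest, and lowest in NAC 3, at 88.6 CPM. Its part in the ratio was not tested.

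Greb1 (chromosome 12, 16670615 to 16800886, minus strand) encodes a cofactor of estrogen receptors and is itself induced by estrogen in many tissues. It had 335, 437, 316, 318, 293 and 379 CPM in saline 1 to 6 and 477, 346, 201 and 388 in NAC 1 to 4. By CPM, NAC 1 was the highest and NAC 3, with 25 reads, the lowest of all libraries. By TPM the order differed, with NAC 3 the highest at 97.3 and NAC 2 the lowest at 39.7. Greb1 averaged 353 ± 115 CPM across the 4 NAC libraries, against 346 ± 52.8 across the 6 from saline (mean ± SD); the log2 fold was 0.049 with an SE of 0.26 (adjusted p = 0.946 by edgeR) and turned negative under 8 of 26 alternatives. Among the saline libraries, Cyp19a1 was lowest in saline 3, where Greb1 had 316 CPM, and highest in saline 5, where Greb1 had 293 CPM. How Greb1 varies with Cyp19a1 was not tested.

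**Figure D4:**
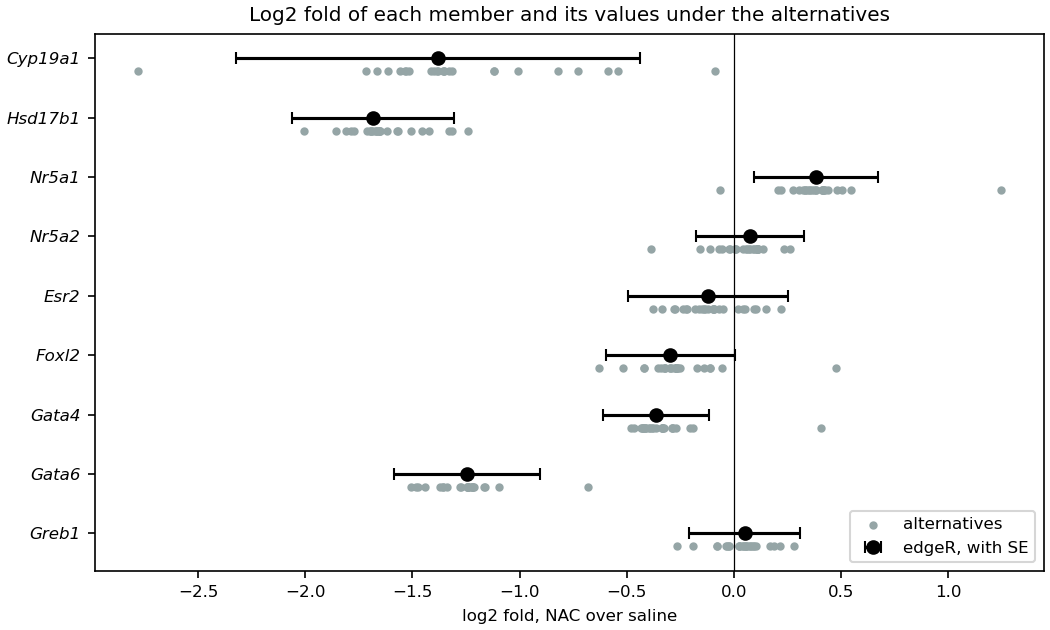
Log2 fold of NAC over saline for each gene by edgeR with its SE (black), and its values under each alternative (grey). Hsd17b1 and Gata6 stay negative throughout, at -2.01 to -1.24 and -1.51 to -0.68, as does Cyp19a1 over a wider range of -2.78 to -0.088, while Nr5a2, Esr2 and Greb1 lie on both sides of 0 and Nr5a1, Foxl2 and Gata4 change sign under 1 alternative each.

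Per transcript length, the order of mean TPM in saline was Hsd17b1 (951 ± 279, SD, n = 6), Esr2 (91.5 ± 30.5), Gata4 (83.2 ± 19.5), Greb1 (73.9 ± 18.6), Nr5a2 (67.4 ± 9.22), Foxl2 (52.5 ± 13.9), Nr5a1 (37.5 ± 10.2), Gata6 (30.5 ± 8.32) and Cyp19a1 (10.5 ± 11.3). Hsd17b1 was above Esr2 in 6 of 6 saline libraries, Foxl2 above Nr5a1 in 6 and Gata6 above Cyp19a1 in 6. The neighbours from Esr2 to Foxl2 exchanged places, with 3 or 4 of 6 libraries keeping the order of the means, and did not differ beyond their spread. In NAC the means were 329 ± 176 TPM for Hsd17b1 (SD, n = 4), 12.7 ± 4.19 for Gata6 and 49.9 ± 17.8 for Nr5a1. The position of single libraries by CPM was uneven: NAC 2 was the lowest of the 10 for 4 of the 9 genes, NAC 3 for 3, and saline 5 was the highest for 4.

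Other genes of these pathways were described by 4 lists, whose members were chosen for their known roles, with earlier results of these data known. Their counts beside the shares of all tested genes are descriptions and not tests. Of 19 other estrogen pathway genes, 17 were in the tables and 10 could be tested, 5 negative and 5 positive with a median log2 fold of -0.076, and 0 were called; 2 had an unadjusted p under 0.05, both lower (8.34% of all tested genes were lower and 7.82% higher at that p, and 0.0731% were called). Por, which encodes the reductase that feeds electrons to aromatase, had 4.10 to 23.1 CPM in NAC and 8.95 to 107 in saline (log2 fold -1.84 with an SE of 0.61, adjusted p = 0.171 by edgeR), and Hsd17b10, a mitochondrial dehydrogenase gene, had a log2 fold of -0.82 (adjusted p = 0.173). Cyb5a, the gene of an electron carrier for steroid hydroxylases, had 934 to 2996 CPM in NAC and 968 to 3636 in saline. Reads for the estrogen-inactivating genes Sult1e1 and Hsd17b2 were near absent, with 1 read each over all libraries, and Pgr, the progesterone receptor gene, had 7 reads in NAC, all in NAC 2, and 1 in saline.

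Of 23 other granulosa identity and ovarian fate genes, 17 could be tested, 11 negative and 6 positive with a median of -0.48, and 0 were called; 5 of 17 had an unadjusted p under 0.05 as lower, against 8.34% of all tested genes, and 2 as higher, against 7.82%. Inhba, the activin beta A subunit gene, had 16.1 to 98.3 CPM in NAC and 25.6 to 1076 in saline (log2 fold -3.37 with an SE of 1.11, adjusted p = 0.191 by edgeR). Amhr2, the receptor gene for anti-Müllerian hormone, had 281, 53.2, 145 and 379 CPM in NAC and 394 to 615 in saline, with no overlap (log2 fold -1.13, adjusted p = 0.195). Fshr, the receptor gene for the hormone that induces aromatase, had 24.2 to 57.7 CPM in NAC and 38.1 to 144 in saline (log2 fold -1.15, adjusted p = 0.214). Inha, the inhibin alpha gene, had 2586 to 8216 CPM in NAC and 7606 to 32857 in saline, where saline 1 and 2 (7606 and 10271) were the lowest (log2 fold -1.89, SE 0.47, adjusted p = 0.0924). The 2 higher at an unadjusted p under 0.05 were Wt1 and Kitl, whose groups overlapped. Wt1 had 32.8 to 596 CPM in NAC and 6.66 to 171 in saline (log2 fold 2.02, adjusted p = 0.296 by edgeR). Kitl had 13.7 to 72.5 CPM in NAC and 7.53 to 27.0 in saline (log2 fold 1.32, adjusted p = 0.248 by edgeR).

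Of 23 coregulators of the NR5A, estrogen receptor and GATA factors, 20 could be tested, 16 positive and 4 negative with a median of 0.27, and 0 were called; 3 of 20 had an unadjusted p under 0.05 as higher, against 7.82% of all tested genes, and 2 as lower, against 8.34%. Nrip1, which encodes the repressor RIP140, had 110, 127, 113 and 139 CPM in NAC and 44.7 to 109 in saline, without overlap (log2 fold 0.86, SE 0.30, edgeR adjusted p = 0.184). Ddx20, which encodes a repressor of NR5A1, had a log2 fold of 1.30, with 195 CPM in NAC 2 against 40.3 to 47.6 in the other NAC libraries, and Crebbp, a histone acetyltransferase gene, of 0.69 (adjusted p = 0.173 and 0.244). Phb2, a prohibitin gene that restrains estrogen receptors, had 61.4 to 298 CPM in NAC and 346 to 593 in saline, without overlap (log2 fold -1.03, adjusted p = 0.190). The GATA cofactor genes Zfpm1 and Zfpm2 had log2 folds of -0.18 and 0.26.

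Genes of Sertoli cells, the testicular counterpart that FOXL2 and estrogen receptors hold back, were described last. Of 14 listed, 5 could be tested and 0 were called, with a median of 0.082; 2 of 5 had an unadjusted p under 0.05 as lower, against 8.34% of all tested genes, and 1 as higher, against 7.82%, while 0.0731% of all tested genes were called. Sox9 had 13 reads in NAC and 37 in saline, at most 7.94 CPM in a library, and Dmrt1 had 0 and 1. Dhh, a hedgehog ligand gene of granulosa cells, had 2.05 to 106 CPM in NAC and 128 to 202 in saline, without overlap (log2 fold -1.47, SE 0.51, edgeR adjusted p = 0.184), Mro had a log2 fold of -2.13 (adjusted p = 0.111), Aard of 1.25 (adjusted p = 0.244) and Nedd9 of 0.082 (adjusted p = 0.943).

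**Figure D5:**
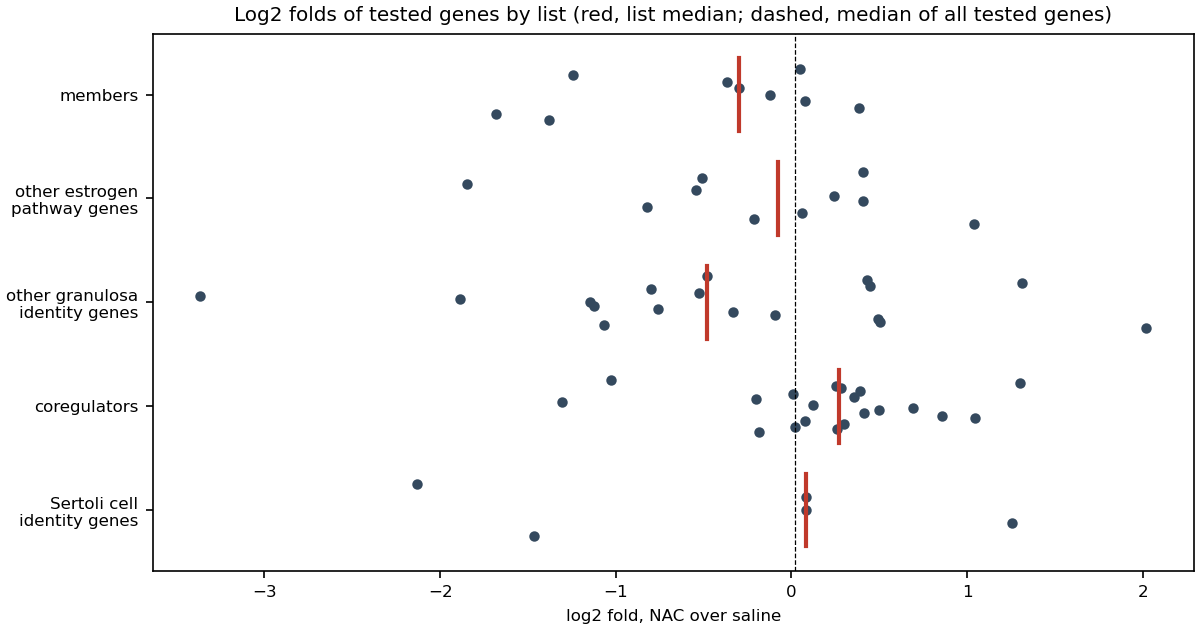
Log2 folds of NAC over saline for the tested genes of each list, each point a gene, with the list median in red and the median of all tested genes (0.018) as a dashed line. The medians are -0.30 for the 9 genes, -0.076, -0.48, 0.27 and 0.082 for the lists below, and none of the points passed edgeR's test.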

How the data were processed

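RNA was measured in 10 libraries. For each library the authors deposited a gene table; the submitters' processing notes name Salmon and GRCm38, with neither version nor strand setting. Per the file headers the tables hold estimated counts, TPM and lengths. The lengths listed in the deposited tables were not used for levels: for Cyp19a1 they ran from 443 to 2163 bases, while reads over TPM imply 2053 to 2227. The 1548 rows without a symbol (0.496% to 0.638% of reads) were left out.

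Estimated counts were rounded and tested with edgeR 4.0.16 in R 4.3.3 (quasi-likelihood, robust, TMM factors, filterByExpr), NAC against saline, with Benjamini-Hochberg adjustment over all genes tested. CPM use the TMM factors. SE is the log2 fold over the root of F. The test was checked on simulated counts. There it recovered 1% of 100 genes given a log2 fold of 1, and 54% of 100 given a log2 fold of 2. These genes were drawn at random from all tested genes, so the shares are not rates for the 9 genes. A gene that was not called may still differ between the groups. DESeq2 1.42.0 and limma 3.58.1 were alternatives, with mgcv 1.9.3 for GC and length trends and with other factors, filters, TPM scales, offsets, thinning, covariates and libraries left out. Ratios (prior count 2) were compared by exact permutation over 210 splits, smallest p 0.00476. Genes named were the 9, the 4 of each list with the smallest unadjusted p, and the 3 nearest profiles of each enzyme. Wt1, Kitl, Zfpm1, Zfpm2, Pgr, Sult1e1, Hsd17b2, Sox9 and Dmrt1 were named after their values were seen. The members and lists were chosen with earlier results of these data known. Positions are from GENCODE and promoters from RefSeq, both on GRCm38. All libraries carry batch 1. Floors of 3 reads and 95% intervals cover counting error only, since amplified reads are not independent molecules.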

Additional observations from a re-analysis of the deposited data

How the results depend on the processing

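The number of genes called was 8 with edgeR, 226 with no filter on low counts, 433 with DESeq2, 476 with limma-voom and quality weights, 4 with offsets from listed lengths, 1 with offsets from implied lengths (chosen after seeing the data), 2 without NAC 2 and NAC 3, 62 after thinning to 115666 reads, 16 with GC and length offsets, 1 with oocyte and stroma scores as covariates, and 1 to 58 with each library left out (58 without NAC 1, 39 without NAC 2, 22 without saline 1, 5 without saline 2, 2 without saline 4, and 1 without any other single library). With the replicate block it was 1, and the log2 fold of Cyp19a1 was -0.088. Deviations from the group mean correlated at -0.0081 to 0.20 between same-numbered libraries of the groups and at -0.15 to 0.14 between the others. The largest correlation was that of NAC 4 with saline 4. None exceeded 0.20, so the numbers were not taken as pairs. The adjusted p of Hsd17b1 passed with no filter (log2 fold -1.71), DESeq2 (-1.65) and limma-voom (-1.62), and that of Gata6 with DESeq2 (-1.22) and limma-voom (-1.44); each library left out gave -2.01 to -1.42 and -1.51 to -1.16, none of which passed. Signs turned for 6 of the 9 genes. Nr5a1 was -0.065 with both scores as covariates. Nr5a2 was -0.071 with limma-voom, -0.018 with the replicate block, -0.11 without NAC 2 and NAC 3, -0.39 with GC and length offsets, -0.022 with both scores, and -0.16 to 0.14 with each library left out. Esr2 was 0.10 with library size alone, 0.043 with limma-voom, 0.22 without NAC 2 and NAC 3, 0.091 after thinning, 0.020 with GC and length offsets and -0.38 to 0.15 with each library left out. With GC and length offsets Foxl2 was 0.48, Gata4 0.41 and Nr5a1 1.24. Greb1 was -0.078 with listed lengths, -0.032 with the replicate block, -0.26 with both scores and -0.19 to 0.17 with each library left out. Among ratios, Gata4/Gata6 passed with a prior count of 0.5 (0.93) and with TPM (0.93) and lay at 0.62 to 0.96 with each library left out, passing without NAC 2 or saline 5; Esr2/Esr1 passed with TPM (-1.18); Cyp19a1/Hsd17b1 lay at 0.90 to 1.88 and passed without saline 5. Library size alone moved the median of all genes to 0.19. Cyp19a1 and Gata6 did not reach the filter after thinning. Without NAC 2 and NAC 3 the ratios have 28 splits and a smallest p of 0.0357, so a single ratio at that p cannot pass over 4; Gata4/Gata6 was 1.04 there (exact permutation p = 0.0357, adjusted p = 0.143). The replicate block changed no call among the 9. The causes of these shifts were not tested.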
